A study of Mus musculus with 6 samples.

Results

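TRIM proteins are a large family of mostly ubiquitin ligases named for a tripartite motif of a RING finger, 1 or more B-boxes and a coiled coil. The members described here are the genes of the authors' deposited table whose symbol is Trim followed by a digit and whose base mean, the average of size-factor normalized read counts over all libraries, is above 3.3. That rule gave 46 genes out of 24982 rows and out of 68 rows with such a symbol, and all 46 are among the 14835 genes that have an adjusted p-value. The cells were labelled cumulus granulosa cells, which surround and nourish the oocyte, from Kun-Ming mice, an outbred stock. The 3 libraries of the control group and the 3 of the group labelled Atg5-KD differ in label by short hairpin RNAs against Atg5, which were transfected. The control treatment, the age of the mice and any pooling of animals are not given in the sources used here. Nothing says that replicates were cultured separately, so p-values reflect differences among libraries that could be technical only. Atg5 is needed to attach LC3 to the forming autophagosome.

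Many TRIM genes are switched on by interferons and act at several steps of antiviral signalling, as ligases for RNA sensors, as adaptors, or as restriction factors against retroviruses. Others take part in autophagy, either by binding its kinases and cargo receptors or by recognising damaged membranes and viral proteins. A further set, the TIF1 proteins, represses transcription on chromatin, and members with an NHL domain or a COS box act on RNA, neurons or microtubules. The 46 members were accordingly described as 13 interferon-linked, 12 autophagy-linked and 21 other genes, each member standing in 1 group.

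Only the authors' comparison of both groups was analysed, with 0 columns holding values per library, so levels of a group are estimates from the base mean and the fold change. The table's name puts KO first, and the libraries labelled Atg5-KD carry ko in their titles. Fold changes were therefore read as Atg5-KD over control. A lower level of Atg5 RNA was not detected in that group, with estimated levels of 414 in control and 397 in Atg5-KD (log2 fold change -0.06 ± 0.14, standard error, SE; authors' deposited table, DESeq2 Wald adjusted p = 0.822). The targeted gene therefore checks neither the labels nor the direction, and Atg5-KD is used below as the label of these libraries only. With the opposite order each rise would be a fall. The ribosomal RNA locus Rn45s took 10.4% of all normalized counts, with a log2 fold change of 4.24 by the authors' deposited table. Scaling to all reads instead moves every log2 fold change by -0.30. All reads here means the summed estimated levels of each group, not reads counted per library. Estimated levels of all tested genes summed to 13026809 in control and 16027164 in Atg5-KD. Rn45s alone was at 151955 in control and 2867935 in Atg5-KD, so most of the rise in that sum lay in this locus. A scaling that leaves Rn45s out was not tested, so calls lost or added under the all-read scale should be read with this in mind. Base means of granulosa markers varied widely by the authors' deposited table. They were 37682 for Gja1, a gap junction protein, and 1816 for the lineage factor Foxl2. Fshr was at 93.4, Amh at 6.07 and Cyp19a1, the aromatase, at 2.34. Of 12 tested granulosa markers 2 were higher and 6 lower (authors' deposited table), 16.7% and 50% beside 10.4% and 10.5% of all tested genes. By the same table the lower included Serpine2 at -0.89, Inhbb at -1.14 and Hsd17b1 at -0.79, while the higher were Kitl at 0.78 and Inhba at 0.45.

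The promoter sequences are shown first. They were not used to choose the members, but the groups were listed with earlier results of these data known. Interferons act through a DNA element whose core is GAAA, any 2 bases and GAAA, bound by IRF factors. The core was searched on both strands in windows from 250 bases before to 50 bases after each annotated start site (RefSeq, GRCm38.p6). It stood in 3.44% of 32851 such windows. Of the 46 members, 34 had a window, and 9 of these genes (26.5%) held the core in at least 1, against 3.64% of all 11465 tested genes with a window. The stretches below show the match in capitals, with 10 bases before it and the bases after it, as read on the strand of the gene. In Trim21 and Trim26 a pair of overlapping matches is in capitals.
Trim30a: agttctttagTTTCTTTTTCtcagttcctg
Trim30d: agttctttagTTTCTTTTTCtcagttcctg
Trim5: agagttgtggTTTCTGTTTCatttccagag
Trim12a: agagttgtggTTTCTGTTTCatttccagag
Trim12c: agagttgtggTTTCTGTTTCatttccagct
Trim34a: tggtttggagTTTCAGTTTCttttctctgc
Trim21: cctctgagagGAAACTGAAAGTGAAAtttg
Trim26: ccgcttccgaTTTCACTTTCCTTTTCtcgg

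These stretches lie on the minus strand at chr7:104465210-104465239 for Trim30a, chr7:104507871-104507900 for Trim30d, chr7:104288136-104288165 for Trim5, chr7:104315466-104315495 for Trim12a, chr7:104353359-104353388 for Trim12c and chr7:102565450-102565479 for Trim21. On the plus strand are those of Trim34a at chr7:104244457-104244486 and Trim26 at chr17:36836976-36837005. The Trim30a and Trim30d stretches were identical over all 30 bases, as were those of Trim5 and Trim12a, and Trim12c shared 28 of 30 bases with either of the latter. Trim34a had 16 bases in common with Trim30a and 18 with Trim5 at the same positions. Windows of such neighbouring copies are not independent of each other. The first base of the match lay 36 bases before the start site in Trim30a, 41 in Trim30d, 49 in Trim5 and 29 in Trim12c, and past the start site in Trim12a, Trim34a and Trim21. A match was also found at an alternative start of Trim2 and at a second start of Trim30a.

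**Figure D1:**
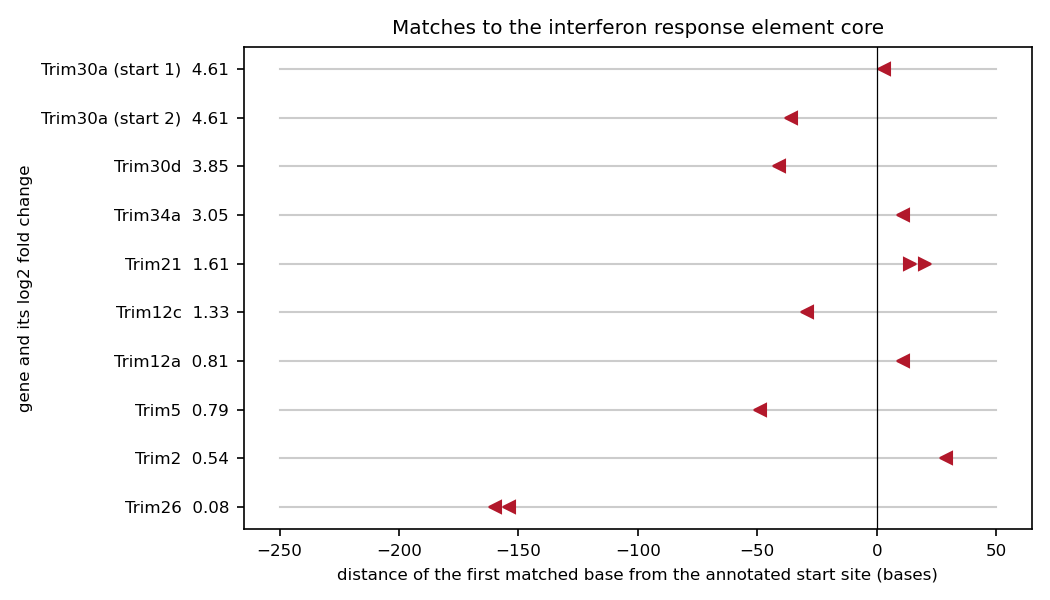
Position of each match to the response element core in the promoter windows of the 9 members that hold one. The horizontal axis is the distance in bases of the first matched base from the annotated start site, each row is 1 start site with the log2 fold change of its gene, arrowheads give the strand of the match relative to the gene, and all but the pair in Trim26 lie within 60 bases of the start.

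Set beside the expression results, the core was present in 7 of the 11 members that rose and have a window (63.6%), in 0 of 2 that fell and in 2 of 21 that did not pass the test (9.52%). Among all tested genes it stood in 7.08% of 1187 that rose, 4.23% of 1182 that fell and 3.11% of 9096 that did not pass. The 7 members were Trim30a, Trim30d, Trim34a, Trim21, Trim12c, Trim5 and Trim2, and the 2 were Trim12a and Trim26. Of these, Trim30d passed the base mean limit only through its level in Atg5-KD. Trim34b, Trim25, Trim56 and Trim23 rose without a match in their window. By group, 8 of 12 interferon-linked, 0 of 9 autophagy-linked and 1 of 13 other members with a window held the core. The interferon-linked list holds genes known to respond to interferon. Many holders are neighbouring copies, so these shares are not independent evidence. A longer core, with CT added at its end, stood in 3 members, Trim30a, Trim30d and Trim34a. These were 8.82% of members with a window and 27.3% of those that rose. Among all tested genes with a window the same shares were 0.366% and 2.11%. A match is a description of letters and not a measured binding site.

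Most interferon-linked TRIM genes were higher in Atg5-KD. Of the 13, 10 were higher and 0 lower by the authors' deposited table (adjusted p under 0.05), where 10.4% of all tested genes were higher and 10.5% lower. Their median log2 fold change by the authors' deposited table was 1.33, against 0.00 for all tested genes, and all 13 values were above 0. Scaling to all reads left 9 higher and made 1, Trim26, lower, with a median of 1.03. Trim30d, higher on both scales, passed the base mean limit only through its level in Atg5-KD. The list holds genes known to respond to interferon and was drawn up when the interferon response of these libraries was known, so its direction is not independent evidence. As a reference, 30 of 30 listed interferon response genes were higher (authors' deposited table), with a median log2 fold change of 4.28. That reference list was also chosen with results of these data known, so its count and median are not independent evidence either. The reference genes with the smallest adjusted p included Usp18 at 5.89 and Oasl2 at 3.51 (authors' deposited table). Trim30a was the only one of the 46 Trim members above the reference median.

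**Figure D2:**
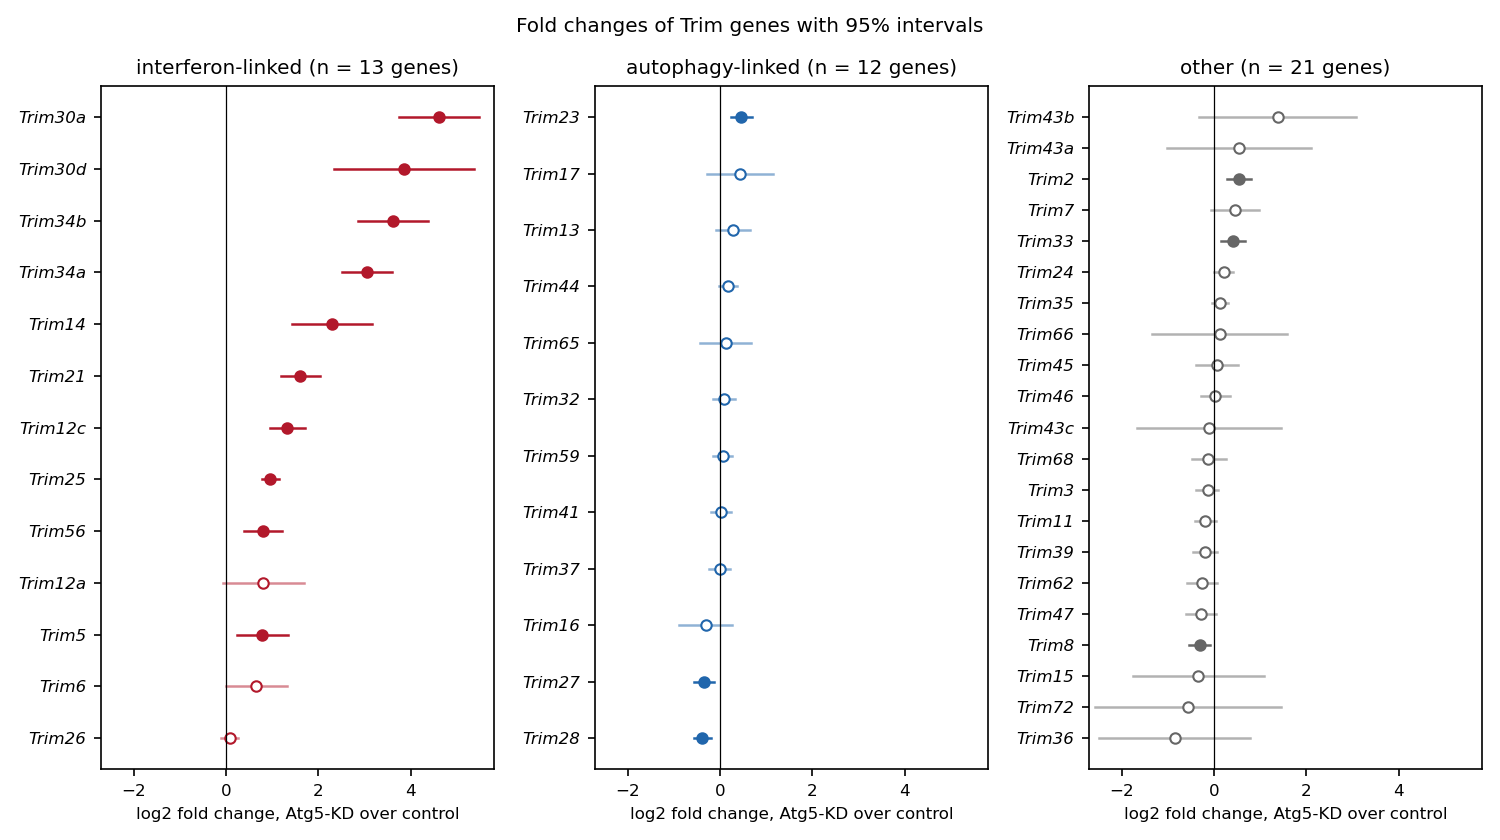
Log2 fold change of each of the 46 members, Atg5-KD over control, in the 3 groups. Points are the authors' estimates, lines their 95% intervals, and filled points have an adjusted p under 0.05. The interferon-linked panel reaches 4.61 (Trim30a), while no filled point of the other panels lies beyond 0.54 in size.

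Trim30a and Trim30d had the largest rises. Trim30a, which in mouse macrophages restrains Toll-like receptor signalling by promoting loss of TAB2 and TAB3, lies on chromosome 7 from 104409025 to 104465193 (GENCODE M21, GRCm38, the same assembly as mm10). By the authors' deposited table, its estimated level was 5.06 normalized counts in the controls and 124 in Atg5-KD. The table gave a log2 fold change of 4.61 ± 0.44 (SE), a 24.5-fold difference (authors' deposited table, DESeq2 Wald adjusted p = 1.54e-23). Trim30d, a close relative of Trim30a, went from an estimated 1.77 to 25.5, with 3.85 ± 0.77 (SE) by the authors' deposited table (DESeq2 Wald adjusted p = 1.34e-05). Its interval from 2.34 to 5.36 is wide, at a base mean of 13.6, and its control level is below the base mean of 3.3 that the rule asks for, so it is a member through the level in Atg5-KD.

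Trim34a and Trim34b, mouse relatives of a human antiretroviral factor that works together with TRIM5, both rose. For Trim34a the estimated means from the authors' deposited table were 20.4 in control and 169 in Atg5-KD, a log2 fold change of 3.05 ± 0.28 (SE, DESeq2 Wald adjusted p = 5.79e-25). Trim34b moved from an estimated 7.57 to 92.5, at 3.61 ± 0.39 (SE) by the authors' deposited table (DESeq2 Wald adjusted p = 1.62e-18). Their 95% intervals overlap. These copies share transcript sequence: 11.6% of the 150-base windows of Trim34b transcripts occur unchanged in Trim34a, so counts of the pair are uncertain to that extent. Of the Trim34a windows 16.2% occur in Gm47248, an annotated gene on the opposite strand. Gm47248 has no row in the authors' deposited table, so whether reads were counted for it is not known. The sources used here do not say how counting treated strand.

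Of the 3 Trim5-like copies, Trim12c and Trim5 passed the test and Trim12a did not. Trim12c, which in mouse cells promotes interferon and NF-kB signalling, stood at 1.33 ± 0.19 (SE) with estimated means of 86.1 in control and 217 in Atg5-KD (authors' deposited table, DESeq2 Wald adjusted p = 9.41e-11). Trim5, the mouse relative of the primate factor that blocks incoming retroviral capsids, was at 0.79 ± 0.28 (SE) with estimated means of 42.5 and 73.5 (authors' deposited table, DESeq2 Wald adjusted p = 0.0268). Its call ended with all reads as the scale (0.49, adjusted p = 0.149) and once the trend with GC content and length was removed (0.62, adjusted p = 0.134). Trim12a had nearly the same fold change, 0.81 ± 0.45 (SE), but at a base mean of 21.1 did not pass the test (authors' deposited table, DESeq2 Wald adjusted p = 0.202). Trim6, whose human counterpart makes ubiquitin chains that activate the kinase IKKε, was at 0.65 ± 0.34 (SE) and did not pass either (authors' deposited table, DESeq2 Wald adjusted p = 0.169).

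These 8 genes form a tandem array on chromosome 7 that spans 289 kb from 104218793 to 104507849, in the order Trim6, Trim34a, Trim5, Trim12a, Trim34b, Trim12c, Trim30a and Trim30d. Of the 8 genes 6 were higher and 0 lower by the authors' deposited table, 75% and 0% beside 10.4% and 10.5% of all tested genes. With all reads as the scale 5 were higher and 0 lower. The higher genes include Trim30d, which passed the base mean limit only through its level in Atg5-KD. By the authors' deposited table the median log2 fold change of the 8 was 2.19, and summed estimated levels went from 209 to 776 normalized counts. The lowest bound of the 95% intervals of Trim30a, Trim30d, Trim34a and Trim34b was 2.34, and the highest bound of Trim5, Trim6, Trim12a and Trim12c was 1.70. These sets were not planned and follow the size of the fold changes, so the gap between them is no separate result. Trim30b in the same array was listed with a base mean of 0 by the authors' deposited table, and it lies between Trim12c and Trim30a. Trim30c, also on the interferon-linked list, has no row in the authors' deposited table. The other tested members of chromosome 7 lie outside the array: Trim28 fell, Trim21 rose, and Trim68, Trim3, Trim66 and Trim72 did not pass the test, with log2 fold changes from -0.56 to 0.12 by the authors' deposited table.

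**Figure D3:**
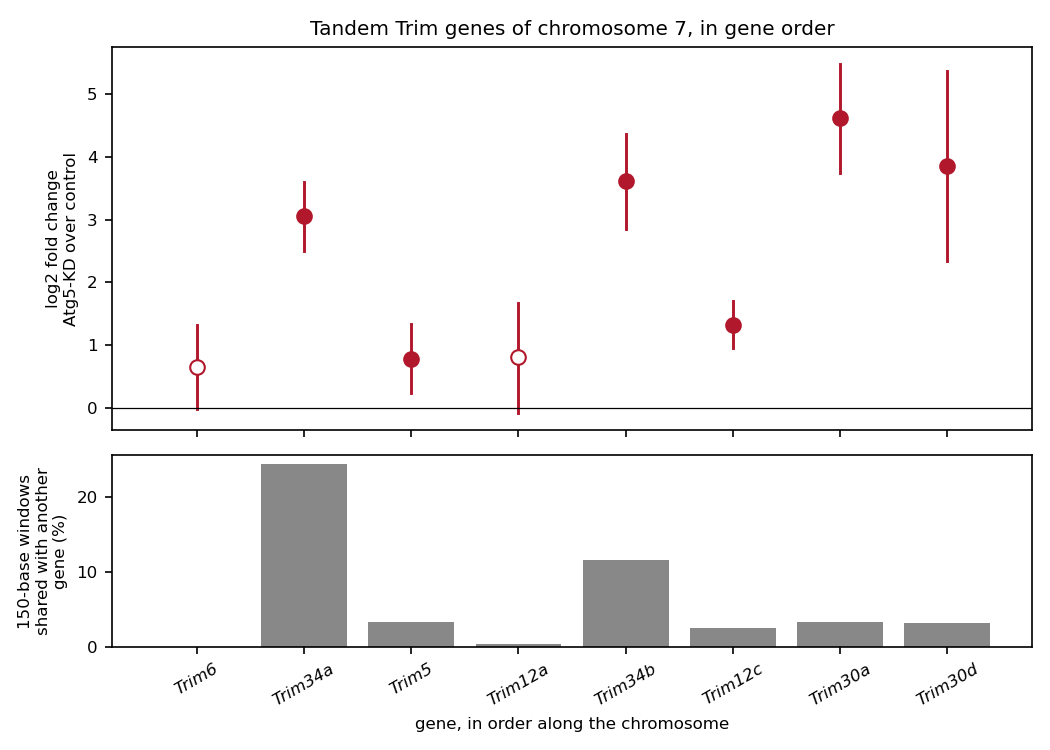
Tandem Trim genes of chromosome 7 in gene order. The upper panel gives the log2 fold change, Atg5-KD over control, with its 95% interval (filled, adjusted p under 0.05), and the lower panel the percentage of 150-base transcript windows found unchanged in another gene. Trim34a and Trim34b share most, at 24.3% and 11.6%, and the other 6 genes at most 3.29%.

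Of the 5 interferon-linked members elsewhere in the genome, 4 were higher (80%, beside 10.4% of all tested genes) by the authors' deposited table, with a median log2 fold change of 0.96. Trim25, the ligase that attaches ubiquitin to the RNA sensor RIG-I, is the most abundant of them. Estimated means from the authors' deposited table were 1682 in control and 3280 in Atg5-KD, a log2 fold change of 0.96 ± 0.10 (SE, DESeq2 Wald adjusted p = 9.42e-21). Those 1682 and 3280 counts were part of summed estimated levels of 3826 and 6401 over all 13 interferon-linked genes. Trim21, a cytosolic antibody receptor that sends antibody-coated virus to the proteasome, went from an estimated 62.1 to 190, at 1.61 ± 0.22 (SE) by the authors' deposited table (DESeq2 Wald adjusted p = 4.81e-12). Trim56, which supports signalling from cytosolic DNA and RNA, stood at 0.81 ± 0.21 (SE) with estimated means of 184 and 322 (authors' deposited table, DESeq2 Wald adjusted p = 0.00151).

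Trim14, a member without a RING finger that serves as an adaptor of the mitochondrial antiviral protein MAVS, rose 4.93-fold by the authors' deposited table, from an estimated 11.4 to 56.4 (2.30 ± 0.44 (SE), DESeq2 Wald adjusted p = 5.37e-06). Of its exonic bases 38% overlap genes on the opposite strand, chiefly Nans, which fell by 0.52 on the log2 scale by the authors' deposited table (DESeq2 Wald adjusted p = 2.12e-05). Trim26, a ligase that promotes loss of nuclear IRF3, did not pass the test despite a base mean of 1727, at 0.08 with a 95% interval from -0.10 to 0.26 by the authors' deposited table. Scaled to all reads it stood at -0.22 and was called lower (adjusted p = 0.0459). Of the 13 interferon-linked genes, it is the only one whose interval lay within 1 log2 unit of 0 on both sides.

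**Figure D4:**
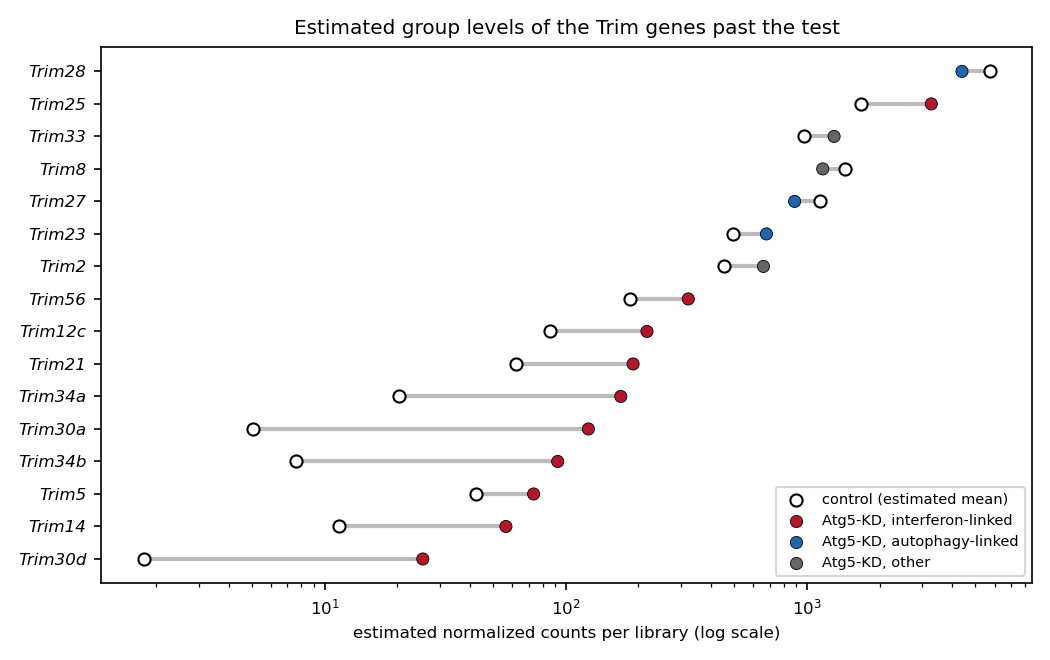
Estimated group levels of the 16 members past the test, in normalized counts on a log axis. Open circles are control and filled circles Atg5-KD, coloured by group, without error bars because no values per library were analysed. Long bars belong to interferon-linked genes that were low in control, such as Trim30a (5.06 to 124), and short bars to abundant genes such as Trim28 (5729 to 4396).

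Many markers of leukocytes were lower. Of 19 tested, 11 were lower and 0 higher by the authors' deposited table, 57.9% and 0% beside 10.5% and 10.4% of all tested genes. Their median log2 fold change by the authors' deposited table was -1.44, with summed estimated levels of 2896 in control and 880 in Atg5-KD. Among them Laptm5 stood at -2.75, Lcp1 at -1.12, C1qc at -3.66 and C1qa at -3.06 by the authors' deposited table. Cd3e of T cells, at a base mean of 2.24, has no adjusted p and was at 3.98 with an unadjusted p of 0.0193 (authors' deposited table, DESeq2 Wald test). In bulk RNA fewer cells of a type and less RNA per cell cannot be told apart, and the part of these markers in the Trim results was not tested.

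Of the 12 autophagy-linked TRIM genes, 1 was higher and 2 lower by the authors' deposited table, 8.33% and 16.7% beside 10.4% and 10.5% of all tested genes. Their median log2 fold change was 0.07 by the authors' deposited table. Scaled to all reads it was -0.23, with 0 higher and 4 lower where 3.6% and 38.7% of all tested genes were. These shares lie near the background and are no result about the group. Trim23, which carries an ARF domain and takes part in virus-induced autophagy through TBK1 and p62, went from an estimated 493 to 679, at 0.46 ± 0.12 (SE) by the authors' deposited table (DESeq2 Wald adjusted p = 0.00113). It lost its call with all reads as the scale (0.16, adjusted p = 0.271) and with the GC and length trend removed (0.22, adjusted p = 0.244).

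Trim28, also called KAP1, is the corepressor of KRAB zinc finger proteins that silences retroelements and protects imprints, and it has been linked to autophagy as a ligase acting on AMPK. It was the most abundant member, and its estimated means from the authors' deposited table were 5729 in control and 4396 in Atg5-KD. Its log2 fold change of -0.38 ± 0.09 (SE) passed the test as deposited (authors' deposited table, DESeq2 Wald adjusted p = 0.000448). With the GC and length trend removed it was -0.12 and not called (adjusted p = 0.464), and the cause of that difference was not tested. Trim27, a nuclear and endosomal ligase, fell from an estimated 1136 to 889, at -0.35 ± 0.11 (SE) by the authors' deposited table (DESeq2 Wald adjusted p = 0.0105), and kept its call under both of those settings.

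For the 9 autophagy-linked genes that did not pass, log2 fold changes ran from -0.31 (Trim16, which marks damaged lysosomes together with galectin 3) to 0.43 (Trim17) by the authors' deposited table. Of these, 5 had 95% intervals within 0.5 of 0. Trim37, a ligase of centrosomes and peroxisomes, had an interval from -0.23 to 0.21, Trim41 from -0.19 to 0.23, and Trim32, which acts on the kinase ULK1, from -0.16 to 0.32 by the authors' deposited table. Trim44, the second most abundant of the group with a base mean of 2610, and Trim59 at 1057 stood at 0.17 ± 0.10 (SE) and 0.06 ± 0.11 (SE) by the authors' deposited table. For Trim17, with a base mean of 30.4, the interval was wider, from -0.29 to 1.14 (authors' deposited table). Trim13, an ER-membrane ligase, and Trim65, a ligase of the RNA sensor MDA5, were at 0.29 and 0.12 by the authors' deposited table. Under all-read scaling Trim37 and Trim41 were called lower, at -0.31 and -0.28 (adjusted p = 0.0163 and 0.0234).

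Among the 21 other members, 2 were higher and 1 lower by the authors' deposited table, with a median of -0.10. These shares were 9.52% and 4.76%, beside 10.4% and 10.5% of all tested genes. Trim2, an NHL-domain ligase of neurons, went from an estimated 453 to 660, at 0.54 ± 0.13 (SE) by the authors' deposited table (DESeq2 Wald adjusted p = 0.000595). Trim33, or TIF1γ, which controls SMAD4 in TGF-beta signalling, went from 971 to 1296, at 0.42 ± 0.13 (SE) by the authors' deposited table (DESeq2 Wald adjusted p = 0.0101). Trim8, which acts on SOCS1 and on the kinase TAK1, fell from an estimated 1444 to 1163, at -0.31 ± 0.12 (SE) by the authors' deposited table (DESeq2 Wald adjusted p = 0.0395).

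None of these 3 calls held in every alternative. Scaled to all reads Trim2 was at 0.24 (adjusted p = 0.13) and Trim33 at 0.12 (adjusted p = 0.498). Once the GC and length trend was removed, Trim33 was at 0.18 (adjusted p = 0.436) and Trim8 at -0.06 (adjusted p = 0.839), and 1 of the 21 members was then higher and 0 lower. At that setting 10 of the 46 members were higher and 1 lower, where 6.69% and 7.12% of all tested genes were. Scaled to all reads 0 of the 21 were higher and 6 lower, namely Trim8, Trim11, Trim3, Trim39, Trim47 and Trim62, at a setting that called 38.7% of all tested genes lower.

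The genes of the TIF1 proteins did not share a direction as deposited. Trim28 was lower and Trim33 higher, Trim24, a coregulator of nuclear receptors, stood at 0.21 ± 0.11 (SE) and Trim66, at a base mean of 7.55, at 0.12 by the authors' deposited table. Of 12 tested partners of these corepressors (0 higher and 7 lower with all reads as the scale), 1 was higher, the heterochromatin protein Cbx5 at 0.33, and 1 lower, the retinoic acid receptor Rara at -0.49, by the authors' deposited table. Both deposited shares were 8.33%, beside 10.4% higher and 10.5% lower among all tested genes. With all reads as the scale the background is 3.6% and 38.7%. Zfp57, which guides Trim28 to imprinted regions, was at 0.17 and Setdb1, its histone methyltransferase partner, at 0.22, neither past the test by the authors' deposited table. Among NHL-domain members Trim3 and Trim32 were at -0.14 and 0.08 by the authors' deposited table beside the rise of Trim2, while Trim71 was below the base mean of the rule. Of the COS-box members Trim46 and Trim36 were tested and stood at 0.03 and -0.84, the latter with a 95% interval from -2.48 to 0.79 by the authors' deposited table.

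Trim35 was the most abundant of the other members, with a base mean of 4454 and a log2 fold change of 0.14 ± 0.09 (SE) by the authors' deposited table (DESeq2 Wald adjusted p = 0.3). At the low end, 7 members had a base mean under 10, among them Trim43a, Trim43b and Trim43c, a family of embryonic genes. Of the members that did not pass, Trim43b moved furthest, at 1.38 ± 0.87 (SE) by the authors' deposited table (DESeq2 Wald adjusted p = 0.28), from estimated means of 2.99 and 7.77. Its control level is below 3.3, so like Trim30d it is a member through the level in Atg5-KD, and its rank rests partly on that. Trim72, a membrane repair protein of muscle, is the member nearest above the limit of the rule with a base mean of 3.77, and Trim9 at 3.09 and Trim63 at 2.65 by the authors' deposited table are nearest below it. In all, 22 Trim rows lie outside the rule, 7 of them at a base mean of 0 and none with an adjusted p by the authors' deposited table. They include the interferon-linked Trim38 and Trim69, at base means of 0.622 and 1.37, and the autophagy-linked Trim31 and Trim50, at 0.124 and 2.08.

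**Figure D5:**
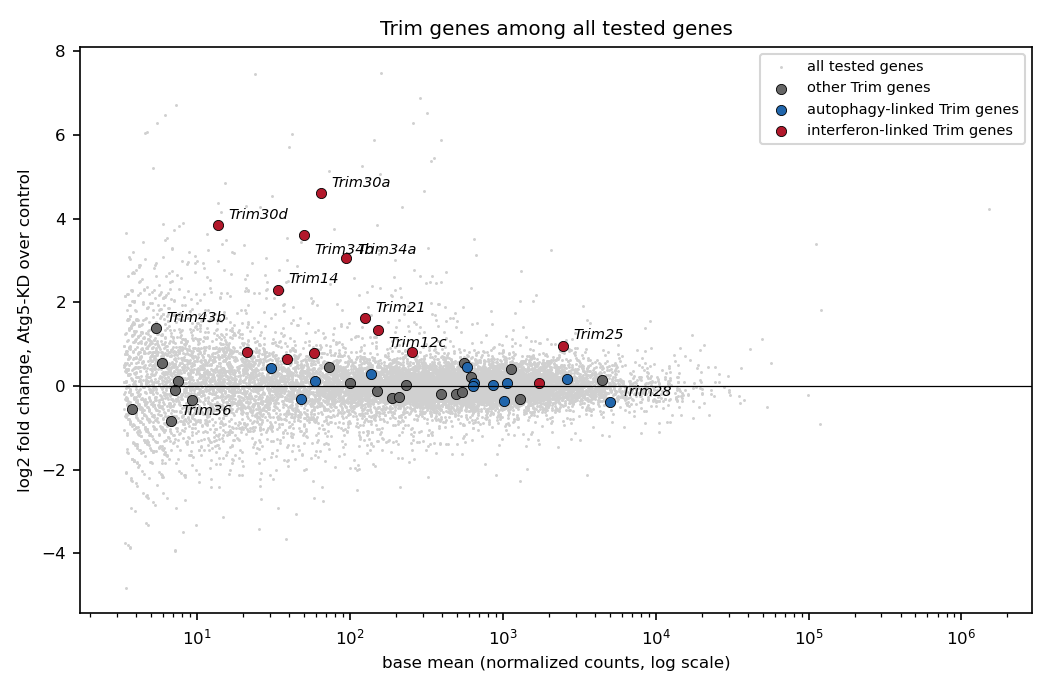
Log2 fold change, Atg5-KD over control, against base mean on a log axis for all 14835 tested genes (grey) and the 46 members (coloured by group). The 10 interferon-linked members past the test have base means from 13.6 (Trim30d) to 2481 (Trim25), and Trim26 at 1727 and Trim28 at 5062 lie at 0.08 and -0.38.

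Over all 46 members, 13 were higher and 3 lower by the authors' deposited table, or 28.3% and 6.52%, beside 10.4% and 10.5% of all tested genes. Of the 13 higher, 10 were interferon-linked, from a list drawn up when the interferon response of these libraries was known. Among autophagy-linked and other members 8.33% and 9.52% were higher, near that background. Under all-read scaling the split was 9 higher to 11 lower, against 3.6% and 38.7% of all tested genes. That scaling moves all genes alike, so the added lower calls are no result about these members. At an absolute log2 fold change of at least 1, 7 members were higher and 0 lower by the authors' deposited table, where 2.24% and 1.89% of all tested genes passed. All 7 were interferon-linked, and 6 of them had a 95% interval that lay wholly above 1. Both counts, and the 13 and 9 higher above, include Trim30d, which passed the base mean limit only through its level in Atg5-KD. Per kilobase of exon, the highest base means were 1217 for Trim28, 965 for Trim35, 462 for Trim44, 431 for Trim25 and 351 for Trim8. On that scale per length the estimated levels of the interferon-linked genes in control were 292 for Trim25 and 244 for Trim26, and 23 or less for each of the other 11. In Atg5-KD Trim25 was at 570, Trim26 at 259, Trim34a at 65.3, Trim12c at 57.9, Trim21 at 51.2 and Trim34b at 50 per kilobase.

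Genes that work with TRIM ligases were listed by role. Of 24 tested genes of antiviral signalling, 11 were higher and 0 lower by the authors' deposited table. These shares were 45.8% and 0%, beside 10.4% and 10.5% of all tested genes. With all reads as the scale 8 were higher and 8 lower, where 3.6% and 38.7% of all tested genes were. Ddx58, which encodes the Trim25 substrate RIG-I, was at 3.12 and Irf7 at 5.39 by the authors' deposited table. The sensor Ifih1 (MDA5) was 9.86-fold higher (authors' deposited table). Mavs, the adaptor that Trim14 joins, and Irf3 stood at -0.16 and -0.10 and did not pass (authors' deposited table). Tab3, a target of Trim30a, was at 0.43 ± 0.13 (SE) and was called higher, while Tab2 at 0.03 was not, by the authors' deposited table.

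Ubiquitin-conjugating enzymes, which work with RING finger ligases, had 1 of 15 higher and 1 lower by the authors' deposited table. Both shares were 6.67%, beside 10.4% higher and 10.5% lower among all tested genes. With all reads as the scale 1 and 8 were called, where the background is 3.6% and 38.7%. The higher was Ube2l6, the conjugating enzyme of Isg15, at 2.17 ± 0.21 (SE), and the lower Ube2v1, the partner of Ube2n in making K63-linked chains, at -0.48 ± 0.11 (SE) by the authors' deposited table. Of 21 autophagy partners 3 were higher and 3 lower by the authors' deposited table, 14.3% each way beside 10.4% and 10.5% of all tested genes (0 and 12 with all reads as the scale, where the background is 3.6% and 38.7%). The cargo receptors Nbr1 and Sqstm1 stood at 0.38 and 0.34 and Lgals8, a sensor of damaged membranes, at 0.39, while the LC3 genes Map1lc3b and Map1lc3a were at -0.32 and -0.39 and Gabarapl1 at -0.28 by the authors' deposited table. Becn1 and Ambra1, subunits of autophagy initiation that several TRIM proteins bind, were at -0.06 and 0.12 and did not pass (authors' deposited table).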

How the data were processed

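RNA of 6 libraries (3 control, 3 Atg5-KD, numbered 2, 3 and 4 in each) was sequenced in read pairs of 150 bases. Per the submitters' processing notes, DESeq2 1.30.1, featureCounts 1.6.2, STAR and StringTie 2.1.4 were used with mm10, in no stated role or order. Per the file headers, the authors deposited a base mean (a signal of size-factor normalized counts), a log2 fold change with its standard error, a Wald statistic (a score), a p-value and an adjusted p-value. The statistic, p and Benjamini-Hochberg adjusted p were recomputed, with 0 rows off by more than 1e-06. The table holds no depth per library, so its effect is seen only through standard errors.

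The planned quasi-likelihood test needs counts per library and could not be run, so the deposited adjusted p under 0.05 was used. Group levels were estimated by splitting each base mean by its fold change, assuming equal weights of both groups. Intervals are 95% normal intervals. GENCODE M21 gave positions, exon lengths, GC content and 150-base windows shared between genes, and promoters came from RefSeq. Members and lists were chosen with earlier results of these data known. Named genes are all members past the test, the 3 most abundant in each group, those with an absolute log2 fold change of at least 1, those next to the base mean limit, and up to 4 members per partner list, others being named after their values were seen. Alternatives were a stricter threshold, a fold limit, other adjustments, 2 other scalings and removal of a quadratic GC and length trend, tested on simulated data. Python 3.11.15, pandas 2.3.3 and scipy 1.17.1 were used. Some listed genes and 1 of the motifs searched are not reported here.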

Additional observations from a re-analysis of the deposited data

How the results depend on the processing

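No paired analysis was possible because the table holds no values per library, and leaving out replicates was not run for the same reason. Of the 16 called members, 7 (Trim12c, Trim14, Trim21, Trim30a, Trim30d, Trim34a and Trim34b) had the same call in each alternative that tested them, the limit of base mean 50 leaving Trim14 and Trim30d untested. All-read scaling gave 11 lower members (4 autophagy-linked, 6 other, 1 interferon-linked, against 3, 2, 1 and 0 as deposited), left 0 autophagy-linked and 0 other members higher, and put Trim26 at -0.22 and Trim41 at -0.28, which the common shift of -0.30 gives for any gene this close to 0. Without the GC and length trend 1 member was lower (1 autophagy-linked, 0 other), and 0 autophagy-linked and 1 other were higher. At adjusted p under 0.01, 1 member was lower (autophagy-linked), 0 other lower and 1 other higher. With a log2 fold limit of 1, 7 were higher and 0 lower, with 0 autophagy-linked and 0 other genes in either direction. Adjustment over every row with a p-value left 0 other members lower (Trim8, adjusted p = 0.0511). Counting Trim21 as autophagy-linked made 2 of that group higher. The longer core, extended by CT, stood in 3 members, all 3 of them higher, against 9 and 7 for the shorter. It stood in 0.366% of all tested genes with a window and in 2.11% of those higher. The stretches of Trim30a and Trim30d are identical, so these members are not independent cases. Centring on the median, and adjusting over genes with a base mean of at least 50, changed no call of a tested member. The causes of these shifts were not tested, and the all-read scale was not recomputed without Rn45s, which held most of the rise in summed levels. Members with few reads, such as Trim36 and Trim43b, have intervals too wide to show changes below 1 log2 unit.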

Other observations

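TRIM family genes that carry other names, a list named with results of these data known, had 3 of 9 tested genes up and 0 down by the authors' deposited table (2 and 1 with all reads as the scale). The deposited shares were 33.3% and 0%, beside 10.4% and 10.5% of all tested genes. With all reads as the scale the background is 3.6% and 38.7%. Pml, the organiser of nuclear bodies and a known interferon target, went from an estimated 644 to 976 normalized counts, at 0.60 ± 0.13 (SE) by the authors' deposited table (DESeq2 Wald adjusted p = 5.01e-05). Mid1, a microtubule-bound ligase, was at 0.57 ± 0.16 (SE) and Bspry, which has a B-box and a SPRY domain, at 1.16 ± 0.21 (SE) by the authors' deposited table. Mid2, the close paralog of Mid1, stood at 0.18 and did not pass (authors' deposited table). Mefv, known as pyrin and expressed in myeloid cells, had a base mean of 0.373 (authors' deposited table).

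Of the 46 members, 18 have at least 1 window of 150 bases that occurs unchanged in another gene, and in 6 the share is over 10%. Outside the chromosome 7 array the highest shares were 26.9% for Trim14 and 19.5% for Trim43c, which shares them mostly with 9330159M07Rik on the opposite strand, a gene at 0.77 that did not pass (authors' deposited table).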
